A study of Rattus norvegicus with 8 samples.

Results

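A set of 6 aldehyde dehydrogenase genes and the retinol carrier Rbp4 was followed in ovaries of androgen-treated and control rats. The members, Aldh1a1, Aldh1a2, Aldh1b1, Aldh2, Aldh3a2, Aldh3b1 and Rbp4, were the probe sets whose annotation for the Affymetrix Rat Genome 230 2.0 array names exactly 1 of these symbols. Each of the 7 genes had 1 such probe set, so the members are 7 of the 31042 probe sets that are not Affymetrix controls, and 7 of the 14217 genes named by a single symbol. Female Sprague-Dawley rats in the DHT group carried a silicone capsule that released 83 µg of 5α-dihydrotestosterone per day for 12 weeks, while CTL rats carried an empty capsule, and ovarian cortex was taken from both at 15 weeks of age. RNA of 3 DHT and 3 CTL animals was read on 1 array each, and a pool of the same 3 animals gave 1 further array per group, which is no further animal. DHT is an androgen that aromatase does not convert to estrogen, and the treated rats served as a model of polycystic ovarian syndrome. According to the methods of the study, corpora lutea were seen in most control ovaries and were few or missing after DHT. The labels give no day of the estrous cycle.

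Aldehyde dehydrogenases oxidize aldehydes to carboxylic acids with NAD or NADP as cofactor, and they differ in substrate and in place in the cell. Members of the Aldh1a group turn retinal into retinoic acid, the hormone-like form of vitamin A that binds nuclear receptors, and other members clear aldehydes formed from ethanol, from fatty acids or by lipid peroxidation. Retinol reaches tissues in the blood bound to the carrier protein RBP4. In the ovary, retinoic acid is known for its part in the entry of germ cells into meiosis and in the function of granulosa cells.

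The values are log2 expression per probe set, made by the authors with GCRMA, a method that corrects each probe for background by its base composition. The array of CTL replicate 3 stood apart, with a median log2 value of 3.25 against 2.97 to 3.03 on the other arrays. The Gapdh control probe sets at the 3' end exceeded those at the 5' end by a log2 difference, large where labelled RNA lacks its 5' end, that was 0.39 and 0.62 on CTL replicates 1 and 2, 3.49 on CTL replicate 3 and 2.99 to 3.98 on the DHT replicates. The members are therefore also given against CTL replicate 3 alone and against CTL replicates 1 and 2, as differences without a test. A background level was set on each array from 41 probe sets of olfactory, vomeronasal and taste receptors, and it was 3.07 on CTL replicate 3 and 2.62 to 2.71 on the other arrays. Granulosa cell genes such as Foxl2, Inha and Amh were far above this level on all 6 arrays of single animals. In bulk tissue, fewer cells of a type and less RNA per cell cannot be told apart.

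Of the 7 members, Aldh1b1 was higher and Aldh3b1 was lower in DHT-treated ovaries, by more than the spread between animals. Both passed the call rule, which asked limma for at least a 2-fold difference with p up to 0.01 and an adjusted p up to 0.10, and the other 5 members did not. With this rule 0.68% of all probe sets were called higher and 0.351% lower. The animals of the 2 groups did not overlap for 5 of the 7 members, 4 higher and 1 lower after DHT, while this held for 17.5% of all probe sets, 10.6% higher and 6.85% lower. The median log2 fold change of the members was 1.03, and that of all probe sets was -0.029. The members were chosen with earlier results of these data known, so these contrasts with all probe sets are no test.

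**Figure D1:**
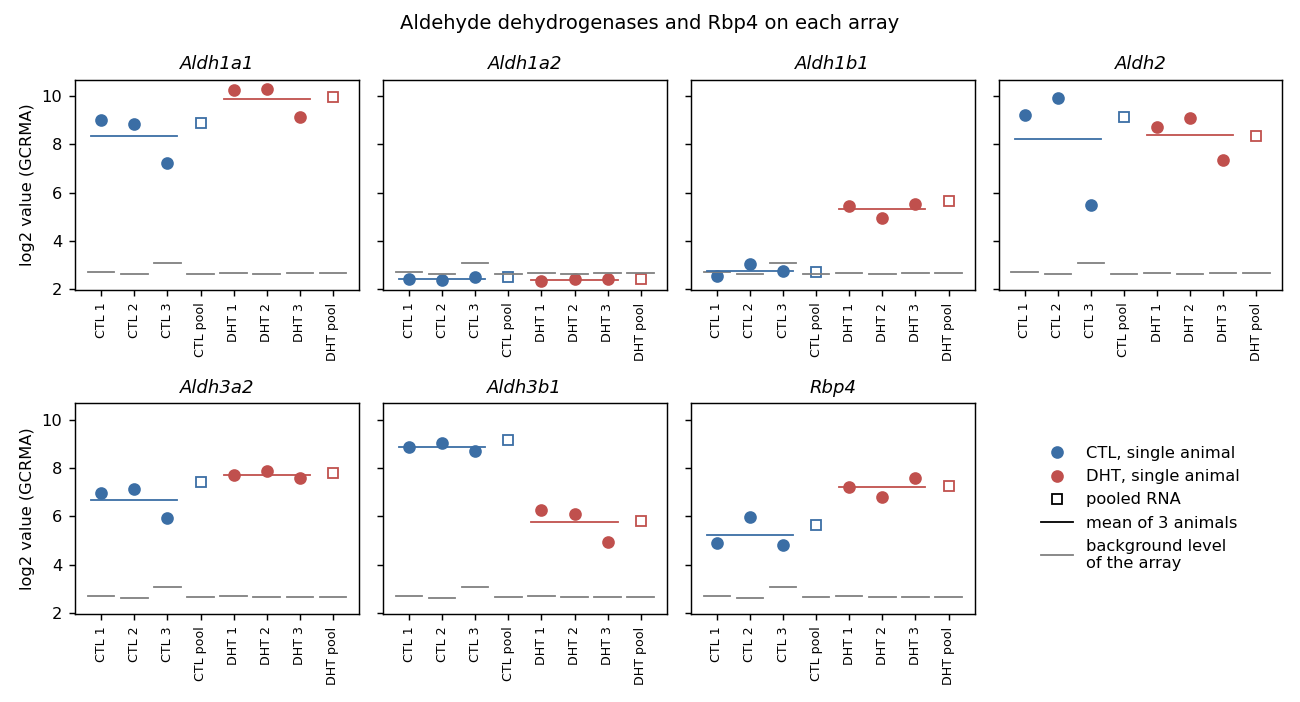
Log2 value of each member (vertical axis, GCRMA) on each of the 8 arrays (horizontal axis), with filled circles for single animals, open squares for pooled RNA, coloured lines for the mean of 3 animals and grey lines for the background level of each array. Aldh1b1 is at 4.95 to 5.55 in DHT animals and at 2.54 to 3.05 in CTL animals, Aldh3b1 is at 4.96 to 6.28 against 8.72 to 9.03, and Aldh1a2 lies below the background line on all 6 arrays of single animals.

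Aldh1b1 encodes a mitochondrial aldehyde dehydrogenase that acts on acetaldehyde and on retinal. Its log2 value was 5.46, 4.95 and 5.55 in DHT replicates 1 to 3, and 2.54, 3.05 and 2.75 in CTL replicates 1 to 3. The 3 DHT animals were all high and the 3 CTL animals all low, with a gap of 1.90 between the groups. On the arrays of CTL replicates 1 and 3 the value was at or below the background level, so in the controls this gene was measured above background only in CTL replicate 2. DHT-treated ovaries averaged 5.32 ± 0.33 (SD, n = 3) and CTL ovaries 2.78 ± 0.25 (SD, n = 3). Limma put the log2 fold change at 2.54 with a standard error of 0.22 and an adjusted p of 0.0508. Since 2 of the 3 control values were near background, this is the difference of the measured values, and the level of the transcript in those controls is known only to be low. The difference was 2.57 against CTL replicate 3 alone and 2.53 against CTL replicates 1 and 2, with the background level limiting how far control arrays could differ. Pooled DHT RNA exceeded pooled CTL RNA by 2.94. Without DHT replicate 1, 2 or 3 the adjusted p was 0.265, 0.225 and 0.167, settings in which no probe set at all was called, and without any single CTL replicate the call was kept at adjusted p of 0.0308 to 0.0916.

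Aldh3b1 encodes an enzyme that oxidizes medium-chain and long-chain aldehydes such as those left by lipid peroxidation. In DHT replicates 1 to 3 its log2 value was 6.28, 6.11 and 4.96, against 8.87, 9.03 and 8.72 in CTL replicates 1 to 3. All DHT animals were below all CTL animals by at least 2.44, and the SD over 3 animals was 0.72 after DHT and 0.16 in the controls. Means were 5.78 and 8.87, a log2 fold change of -3.09 in limma with a standard error of 0.38 and an adjusted p of 0.0607, or 8.51-fold lower. CTL replicate 3 read close to the other controls for this gene: the difference was -2.93 against it alone and -3.17 against CTL replicates 1 and 2. Between the pooled RNAs it was -3.35. The call was kept without CTL replicate 3 (adjusted p = 0.0481). It was lost without DHT replicate 1 (0.265), DHT replicate 2 (0.231), DHT replicate 3 (0.12), CTL replicate 1 (0.133) or CTL replicate 2 (0.145), with a log2 fold change of -2.68 to -3.34 in these settings.

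Rbp4 encodes the plasma carrier of retinol, which is made mainly in liver and fat. Its log2 value was 7.21, 6.80 and 7.61 in DHT replicates 1 to 3 and 4.91, 5.99 and 4.83 in CTL replicates 1 to 3. All 3 DHT animals were above all 3 CTL animals, with a gap of 0.82, and CTL replicate 2 was the highest of the controls. The log2 fold change was 1.96 (standard error 0.39, 95% interval 0.98 to 2.95 before adjustment, limma), a fold of 3.90, and with an adjusted p of 0.126 the gene was outside the 10% limit. It was within the limit with the pooled arrays counted as replicate 4 of each group (adjusted p = 0.0148), though these hold RNA of the same animals and are no further replicate. It was also within the limit with probe sets near background left out (0.0949), with array quality weights (0.0449) and with the Gapdh difference as a covariate (0.0454). With that covariate p was 0.0216 in limma and Rbp4 was not called. Its adjusted p was 0.108 to 0.388 with a single array left out. The difference was 2.38 against CTL replicate 3, 1.75 against CTL replicates 1 and 2 and 1.63 between the pooled RNAs.

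Upstream sequence of these 3 genes is shown because they had the largest group differences among the members, in opposite directions. Each window is the RefSeq promoter in the GRCr8 build, 250 bases before to 50 bases after a transcript start, written 5' to 3' on the strand of the gene. Capitals mark matches to 5 short motifs, searched on both strands. AGAACA is the hexamer of the androgen receptor element. The hexamer bound by retinoic acid receptors and related nuclear receptors is AGGTCA. NRF2, a regulator of detoxifying enzymes, binds a core of TGACNNNGC. The GC box is GGGCGG. The TATA box was searched as TATAAA. The windows lie at chr5:64858750-64859049 on the plus strand for Aldh1b1, at chr1:210591766-210592065 on the minus strand for Aldh3b1 and at chr1:245313502-245313801 on the minus strand for Rbp4. For Aldh3b1 the RefSeq gene also extends further upstream than this start.
Aldh1b1: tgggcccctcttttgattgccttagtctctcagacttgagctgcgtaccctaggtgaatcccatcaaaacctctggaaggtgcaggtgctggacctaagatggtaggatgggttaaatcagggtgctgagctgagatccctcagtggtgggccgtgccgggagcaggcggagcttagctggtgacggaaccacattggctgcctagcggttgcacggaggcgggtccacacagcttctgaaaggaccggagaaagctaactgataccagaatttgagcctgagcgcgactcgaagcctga
Aldh3b1: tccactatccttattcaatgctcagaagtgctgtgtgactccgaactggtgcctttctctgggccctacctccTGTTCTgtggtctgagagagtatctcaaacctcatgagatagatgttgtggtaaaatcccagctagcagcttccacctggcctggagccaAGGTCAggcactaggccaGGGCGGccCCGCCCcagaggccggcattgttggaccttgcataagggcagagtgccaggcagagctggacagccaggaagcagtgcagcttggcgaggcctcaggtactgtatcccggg
Rbp4: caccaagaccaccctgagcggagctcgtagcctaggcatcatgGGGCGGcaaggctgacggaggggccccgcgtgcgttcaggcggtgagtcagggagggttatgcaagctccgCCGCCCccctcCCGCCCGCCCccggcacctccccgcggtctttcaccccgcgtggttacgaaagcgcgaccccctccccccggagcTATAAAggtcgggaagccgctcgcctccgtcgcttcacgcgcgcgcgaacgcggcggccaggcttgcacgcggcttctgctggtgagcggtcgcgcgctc

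The Aldh1b1 window held none of these motifs. The window of Aldh3b1 held 1 match to AGAACA, on the minus strand, 1 to AGGTCA and 2 to GGGCGG. Rbp4 had 4 matches to GGGCGG, of which 2 overlap, and 1 to TATAAA. Of all 33469 RefSeq promoter windows of this length, 20.7% held AGAACA, 16.2% AGGTCA, 12.1% TGACNNNGC, 33.1% GGGCGG and 14.2% TATAAA. The full androgen receptor element, the hexamer and its inverse with a gap of 3 bases, was found in 0.0149% of all windows. A direct repeat of the retinoic acid receptor hexamer with a gap of 5 bases was found in 0.00896%. Neither was found in the 6 members that have a window. The windows also differed in CpG dinucleotides, with 12 in Aldh1b1, 6 in Aldh3b1 and 40 in Rbp4, against a median of 7 over all windows. A match to these letters is a description of the sequence only.

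Aldh1a1 and Aldh1a2 encode cytosolic retinal dehydrogenases, which form retinoic acid. Aldh1a1 had a log2 value of 10.25, 10.28 and 9.13 in DHT replicates 1 to 3 and of 9.01, 8.84 and 7.23 in CTL replicates 1 to 3. Every DHT animal was above every CTL animal, but DHT replicate 3 exceeded CTL replicate 1 by only 0.13. The log2 fold change was 1.53 (standard error 0.60, adjusted p = 0.42, limma), with a 95% interval of 0.0087 to 3.05 before adjustment. It was 2.66 against CTL replicate 3 and 0.97 against CTL replicates 1 and 2. Among the alternative fits it was called in 1, the one with the Gapdh difference as a covariate (2.76, adjusted p = 0.0157). The fold change in that fit was close to the one against CTL replicate 3 alone. Aldh1a2 read 2.36 to 2.44 in DHT and 2.41 to 2.51 in CTL animals, near background on all 6 arrays, with a log2 difference of -0.039 (95% interval -0.20 to 0.12 before adjustment). A value near background says only that this probe set did not detect the transcript here.

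Aldh2, the mitochondrial enzyme best known for clearing acetaldehyde, read 8.70, 9.09 and 7.35 in DHT replicates 1 to 3 and 9.24, 9.91 and 5.51 in CTL replicates 1 to 3. The groups overlapped, and the control animals spanned the DHT animals on both sides (SD 2.37 in CTL, n = 3). Limma gave a log2 fold change of 0.16, standard error 1.29 and adjusted p 0.957, with a 95% interval of -3.10 to 3.43, which leaves a large change in either direction possible. CTL replicate 3 decided its sign: the difference was 2.87 against that animal and -1.19 against CTL replicates 1 and 2. The sign also turned without DHT replicate 2 (-0.19). Without CTL replicate 3 the adjusted p was 0.337. With the Gapdh covariate the value was 2.93, close to the 2.87 against CTL replicate 3 alone, and was called (adjusted p = 0.0192). In that fit 18153 of 31042 probe sets had an unadjusted p under 0.05 in limma. Pooled DHT RNA read 0.78 below pooled CTL RNA (8.37 against 9.15).

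Aldh3a2, the fatty aldehyde dehydrogenase of the endoplasmic reticulum, read 7.71, 7.87 and 7.59 in DHT replicates 1 to 3 and 6.97, 7.14 and 5.95 in CTL replicates 1 to 3. The DHT animals lay close together and all above the controls, with a gap of 0.45. The log2 fold change was 1.03 (standard error 0.34, adjusted p = 0.319, limma), and it was 1.77 against CTL replicate 3, 0.66 against CTL replicates 1 and 2 and 0.38 between the pooled RNAs. Among the alternative fits it was called in 1, with the Gapdh covariate (1.76, adjusted p = 0.0157), close to the difference against CTL replicate 3 alone. Without CTL replicate 3 the adjusted p was 0.0541 and the fold was under the limit.

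**Figure D2:**
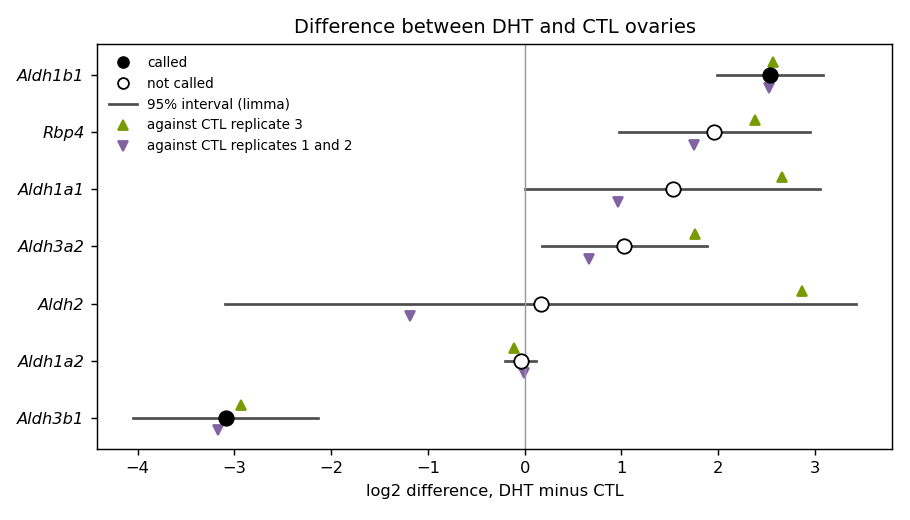
Log2 difference between DHT-treated and CTL ovaries (horizontal axis) for each member (vertical axis); circles show 3 DHT against 3 CTL animals, filled where called, bars the 95% interval from limma before adjustment, and triangles the DHT mean against CTL replicate 3 alone (pointing up) or against CTL replicates 1 and 2 (pointing down). The triangles lie close together for Aldh1b1 (2.57 and 2.53), which was near background on 2 of the 3 control arrays, and for Aldh3b1 (-2.93 and -3.17), and lie on opposite sides of 0 for Aldh2 (2.87 and -1.19).

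The members differed in how far CTL replicate 3 departed from the other controls. It was the lowest control for 5 of the 7 members, all but Aldh1b1 and Aldh1a2, and for 28.6% of all probe sets. That share includes 10015 probe sets near background on all 6 arrays, so it is not a share among expressed genes alone. On CTL replicate 3, Aldh1b1 and Aldh1a2 read below its background level of 3.07. Its log2 value minus the mean of CTL replicates 1 and 2 was -4.06 for Aldh2, -1.70 for Aldh1a1 and -1.10 for Aldh3a2. This difference was -0.63 for Rbp4, -0.24 for Aldh3b1 and -0.042 for Aldh1b1. For Aldh1b1, near background on CTL replicates 1 and 3, it does not measure how alike the controls were. DHT replicate 3 was likewise the lowest DHT animal for Aldh1a1, Aldh2, Aldh3a2 and Aldh3b1, and the highest for Aldh1b1 and Rbp4.

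Across the 6 animals, the genes with the pattern most like Aldh1b1 by Pearson correlation were Setdb1 (r = 0.999) and Tyw3 (r = 0.998), among 13765 probe sets above background on at least 3 arrays. For Aldh3b1 they were Aars1 (r = 0.993) and Pgm2 (r = 0.992), and for Rbp4 Mtmr10 (r = 0.998) and Hat1 (r = 0.997). Aldh1a1 was most like Mgmt (r = 0.994) and LOC100912041 (r = 0.994), Aldh2 most like Lsr (r = 0.999) and Slc3a2 (r = 0.997), and Aldh3a2 most like Pabpn1 (r = 0.998) and Sgsm2 (r = 0.997). Among the members themselves, Aldh1b1 had r = 0.961 with Rbp4 and -0.963 with Aldh3b1, and Aldh1a1 had r = 0.954 with Aldh3a2. Each of these correlations rests on 6 points that share their arrays and the division into groups. The genes outside the members were picked for the highest r among 13765 probe sets, so their high r is no test of a link. Of those named, Tyw3 was called higher and the others were not called.

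The rest of the aldehyde dehydrogenase family showed no call in the fit of all 6 arrays. Of 15 other family members, 11 were measured, 2 of them near background on all 6 arrays, and none was called in either direction. Of the 11, 0 had an unadjusted p under 0.05 in limma, against 11.9% of all probe sets. The members were taken out of this family with earlier results of these data known, so this contrast is no test. The median log2 fold change of the 11 was -0.023, with 7 negative and 4 positive. Aldh1l1, which oxidizes formyl-tetrahydrofolate, read 4.54, 5.27 and 3.97 in DHT and 6.69, 7.44 and 4.68 in CTL replicates 1 to 3, a log2 fold change of -1.67 (adjusted p = 0.511). Aldh4a1, an enzyme of proline breakdown, had -1.52 (adjusted p = 0.597), with CTL replicate 2 at 7.12 far above the other controls. Aldh16a1 had -0.34 (adjusted p = 0.516). In all 3 of these genes CTL replicate 3 was the lowest control and the one nearest to the DHT animals.

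Genes that carry, form or break down retinoids gave no call in the same fit either. Of 11 other carriers, 9 were measured and 3 were near background on all 6 arrays, and their median log2 fold change was -0.12. Crabp2, which carries retinoic acid into the nucleus, read 9.48, 9.73 and 8.56 in DHT and 9.98, 12.05 and 9.68 in CTL replicates 1 to 3, or -1.31 (adjusted p = 0.61), with groups that overlapped through CTL replicate 3. Ttr, the plasma partner of RBP4, was near background on 5 of the 6 arrays, and Rbp7 had -0.36 (adjusted p = 0.746). Among 14 of 15 measured oxidoreductases of retinol and retinal, Rdh16 had -0.25 (adjusted p = 0.405, near background on 4 arrays), Rdh14 0.56 (adjusted p = 0.675) and Adh5, an alcohol dehydrogenase that also removes formaldehyde, 0.82 (adjusted p = 0.752). Of 8 genes of retinyl ester and carotenoid metabolism 6 were measured, 3 of them near background on all 6 arrays. Lrat, the acyltransferase that stores retinol as ester, had -0.14, Ces1d 0.22 and Ces1e -0.11 (adjusted p = 0.896 for each). Of the 6 arrays, Lrat was near background on 1, Ces1d on 4 and Ces1e on all 6. Cyp26b1, which hydroxylates and so inactivates retinoic acid, was 3.57 to 3.78 in DHT and 3.10 to 3.53 in CTL animals without overlap (0.43, adjusted p = 0.326), and Cyp26a1 was near background throughout.

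Receptors and known targets of retinoic acid completed the pathway. The receptor Rara read 3.85, 3.78 and 3.78 in DHT and 3.52, 3.31 and 2.90 in CTL replicates 1 to 3, without overlap and without a call (0.56, adjusted p = 0.281). Its value on CTL replicate 3 was below the background level of that array, 3.07. Rxrb had 0.29 (adjusted p = 0.56) and Rarb -0.082 (adjusted p = 0.89), and 2 of the 6 receptors were near background on all arrays. Of 11 genes known to respond to retinoic acid 8 were measured, with 5 positive and 3 negative and a median log2 fold change of 0.44. Of these 8, 4 (50%) had an unadjusted p under 0.05 in limma, against 11.9% of all probe sets. Without overlap, 4 were higher and 1 lower, against 10.6% and 6.85% of all probe sets. The list was chosen with earlier results of these data known. Meis1, a homeobox transcription factor, was called higher, with 8.21, 8.14 and 7.93 in DHT against 6.78, 6.80 and 7.07 in CTL replicates 1 to 3 (1.21, standard error 0.12, adjusted p = 0.0519). Rarres2, which encodes the adipokine chemerin, had 7.26 to 7.45 in DHT and 6.51 to 6.64 in CTL animals (0.77, adjusted p = 0.052), under the fold limit, and Nrip1, a corepressor of nuclear receptors, had 0.83 (adjusted p = 0.198). Over all 56 measured genes of these lists 1 was called higher and 0 lower, and the median log2 fold change was -0.064. Of the 56, 17 were near background on all 6 arrays. An unadjusted p under 0.05 in limma was found for 7 (12.5%), against 11.9% of all probe sets. Of these 7, 4 were among the 8 genes that respond to retinoic acid.

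**Figure D3:**
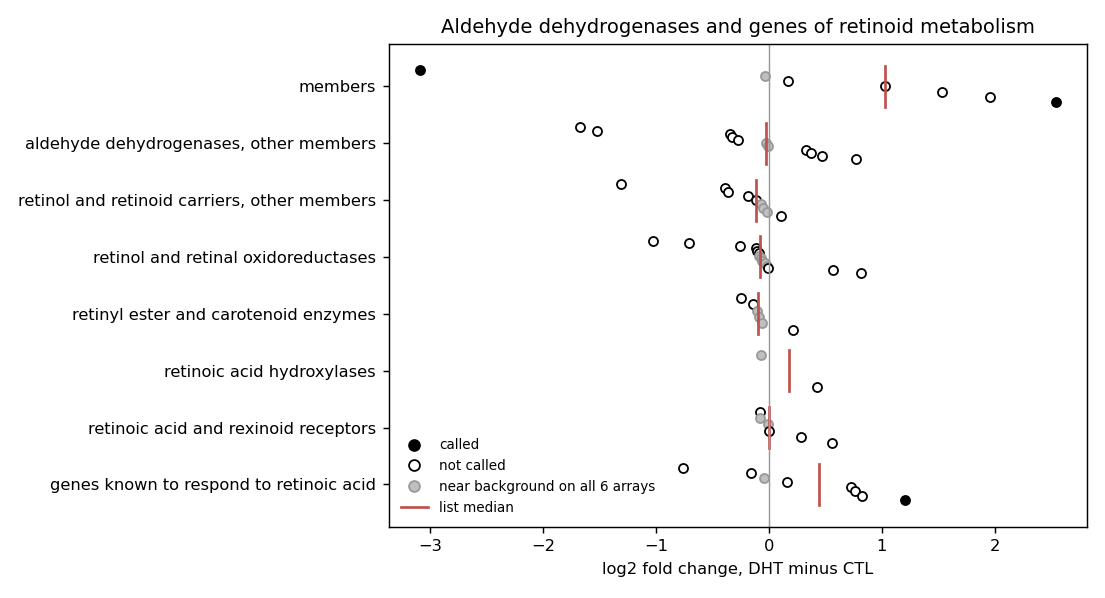
Log2 fold change between DHT-treated and CTL ovaries (horizontal axis) for the 7 members and for 56 other genes of the family and of retinoid metabolism in 7 lists (vertical axis), with 1 point per gene, red bars for list medians, black points for called genes and grey points for genes near background on all 6 arrays. Aldh1b1 (2.54), Aldh3b1 (-3.09) and the uncalled Rbp4 (1.96) and Aldh1a1 (1.53) lie outside the range of the other lists, in which Meis1 (1.21) is the called gene.

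Markers of some ovarian cell types also differed between the groups. The summed signal of 8 measured of 9 granulosa cell markers, on a log2 scale, was 13.06 to 13.32 in DHT and 11.71 to 12.32 in CTL animals. The single genes did not all follow the sum: 5 of the 8 were higher in DHT without overlap, Inhba (1.45) called among them, while Cyp19a1 had a log2 fold change of -2.91 and Foxl2 of 0.090, both with overlap. For 4 measured of 6 markers of theca and interstitial cells the sum was 10.57 to 11.36 against 8.67 to 9.62, with Insl3 called higher and 2 of the 4 overlapping. It was 12.58 to 13.45 against 14.17 to 15.26 for 8 of 10 corpus luteum markers, 7 of which were lower without overlap and none called. For 10 macrophage markers it was 7.83 to 8.04 against 8.76 to 9.60, with Ctss called lower, 6 lower without overlap and 4 overlapping. The sum of 5 of 6 endothelial markers was 7.64 to 8.28 against 8.35 to 9.19, with none called. Of these 5, 3 were lower without overlap and 2 overlapped, Vwf (0.35) among them. The sum of 5 of 8 oocyte markers was 6.09 to 6.58 against 5.25 to 5.77, and Zp2 was called higher (1.55, adjusted p = 0.087). The other 4 overlapped, with Zp3 at 0.22, Gdf9 at -0.087 and Zp1 and Bmp15 near background, and the list median was -0.0044. Stroma sums overlapped, at 13.15 to 13.38 in DHT and 11.52 to 13.61 in CTL animals, with 3 of 8 genes higher without overlap and 0 called. The sums of surface and other epithelium and of smooth muscle overlapped too, as did all their measured genes, 8 and 6. The part of these cell types in the values of Aldh1b1, Aldh3b1 and Rbp4 was not tested.

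Rbp4 is expressed mainly in liver and fat, and markers of both were measured. Of 7 measured of 8 hepatocyte and plasma protein genes 5 were near background on all 6 arrays, Alb among them, and their summed signal was 5.31 to 5.32 in DHT and 5.33 to 5.57 in CTL animals. Of 8 measured of 9 adipocyte genes 6 were near background on all 6 arrays, Adipoq, Plin1 and Lep among them. The adipocyte sum was 5.50 to 5.68 in DHT and 5.70 to 7.35 in CTL animals, and it varied mainly with Fabp4, at 6.50, 4.54 and 3.24 in CTL replicates 1 to 3, and with Cfd. The part of either tissue in the Rbp4 values was not tested. The sum of 7 measured of 8 pancreatic acinar genes was 9.21 to 10.83 in DHT and 5.75 to 6.11 in CTL animals through Cpa1 (5.03) and Ctrb1 (4.23), both called higher, while Prss1, Cela1, Cela2a and Pnlip were near background on all 6 arrays and the median log2 fold change of the list was -0.037.

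**Figure D4:**
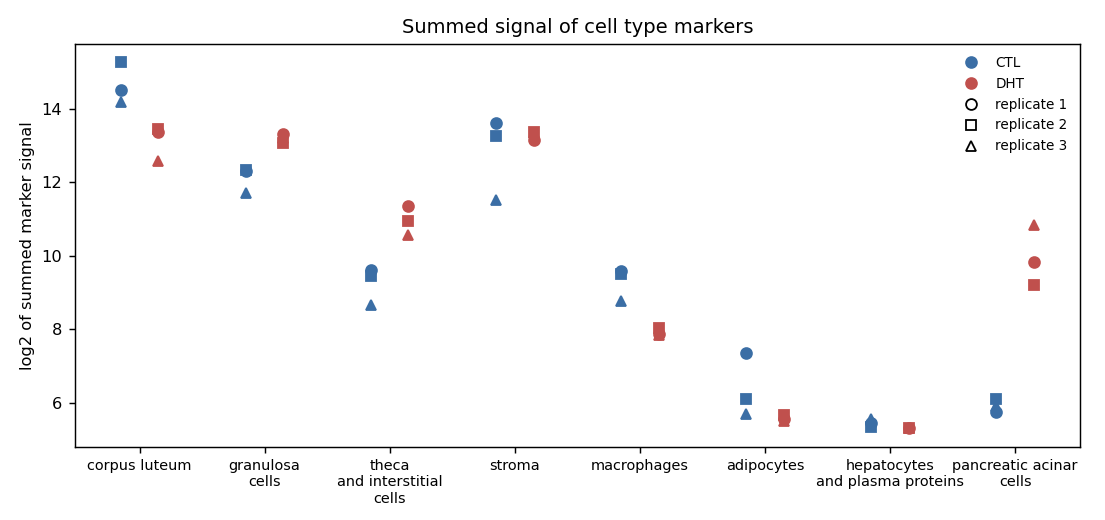
Log2 of the summed signal of marker genes (vertical axis) for 8 cell types (horizontal axis) on the arrays of single CTL (blue) and DHT (red) animals, with a symbol for each replicate number. Granulosa and theca sums are higher and corpus luteum and macrophage sums lower in all DHT animals, while stroma sums overlap. The adipocyte sum is 5.50 to 5.68 in DHT and 5.70 to 7.35 in CTL animals.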

How the data were processed

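RNA from the ovarian cortex was read on 1 array for each of 3 DHT and 3 CTL animals, and 1 array per group held their pool. The authors normalized the arrays with GCRMA and deposited log2 values. The version of GCRMA is not given in the sources used here. No raw files were processed here. Of 31042 probe sets beside 57 controls, 20826 carry 1 symbol, 436 several and 9780 none here. Of those with 1 symbol, 20764 matched a gene of GRCr8 by Entrez gene. DHT was compared with CTL by limma 3.58.1 (lmFit, eBayes; R 4.3.3) over all 31042 probe sets, with Benjamini-Hochberg adjustment. Where a gene had several probe sets, the brightest by its mean over the 6 arrays was used. The background level is the 95th percentile of the receptor probe sets on each array. The members and lists were chosen with earlier results of these data known. Named genes are the 7 members, up to 3 genes per list with the smallest p beside those called, and the 2 genes most alike to each member. No likeness is given for Aldh1a2, which was near background. Of 69 listed pathway genes 56 were measured. Alternatives were each array left out, the pooled arrays as replicate 4, a replicate block, median scaling, quantile normalization, a filter on dim probe sets, array quality weights, a mean-variance trend, the Gapdh difference as a covariate, another call rule, probe sets averaged by gene and pooled against pooled RNA. A planned comparison of Aldh1b1 with Aldh3b1 within animals is not given, since the opposite calls of the genes fix its outcome. The method was tested on simulated data with independent noise for each probe set. These hold no array that departs as CTL replicate 3 does, so they say nothing on its effect. The number of arrays limits the precision.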

Additional observations from a re-analysis of the deposited data

How the results depend on the processing

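All 7 members but Aldh2 and Aldh1a2 kept their direction in every alternative fit. Aldh1b1 was called in 11 of 16 and Aldh3b1 in 8 of 16 alternatives. Aldh2 turned to -0.072 with the pooled arrays as replicate 4, -0.88 with array quality weights, -0.19 without DHT replicate 2 and -1.19 without CTL replicate 3 (range -1.19 to 1.01 over the arrays left out), and Aldh1a2, near background, to 0.017 after median scaling. Leaving dim probe sets out removed Aldh1a2, so it has no value there.

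Among the members, 1 was called higher and 1 lower, and with the pooled arrays (RNA of the same animals), without dim probe sets or with array quality weights 2 were called higher (Aldh1b1 and Rbp4). With the Gapdh covariate 4 were called higher (Aldh1b1, Aldh1a1, Aldh2 and Aldh3a2). The covariate separates CTL replicates 1 and 2 from all other arrays. Fold changes of Aldh1a1, Aldh2 and Aldh3a2 in that fit lay close to those against CTL replicate 3 alone. In it 18153 of 31042 probe sets had an unadjusted p under 0.05 in limma, against 3681 in the main fit. After quantile normalization 0 were called lower (Aldh3b1, adjusted p = 0.103), and with an adjusted p of 0.05 or less and no fold criterion 0 in either direction. Leaving out single arrays gave 0 to 1 member called in each direction.

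Of all probe sets, 109 were called lower and 211 higher (65.9% of 320). This became 433 and 533 with the pooled arrays, 1144 and 730 with array quality weights (39.0% higher), 1088 and 2659 with the covariate, 40 and 21 with a mean-variance trend, 10 and 19 with the other call rule, 86 and 87 after quantile normalization (50.3% higher) and 176 lower without dim probe sets. Single arrays left out gave 0 to 968 lower and 0 to 654 higher, with 968 and 654 without CTL replicate 3. Without any one DHT replicate limma called 0, while 2529 to 2623 probe sets had an unadjusted p under 0.05. The weight of CTL replicate 3 was 0.028, and the other arrays had 1.07 to 7.76.

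Of the pathway genes, 1 was called higher and 0 lower, against 2 and 3 with array quality weights and 7 and 1 with the covariate, and 0 were called higher after quantile normalization, with a mean-variance trend or with the other call rule. Single arrays left out gave 0 to 2 higher and 0 to 3 lower, with 2 higher and 3 lower without CTL replicate 3.

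With the replicate number as a block no probe set was called: 0 members and 0 of all probe sets in either direction and 0 pathway genes, with 3817 probe sets at an unadjusted p under 0.05 (limma). Aldh1b1 and Aldh3b1 had an adjusted p of 0.17 under the block. The deviations of same-numbered animals correlated at -0.074, 0.44 and 0.34. With 3 animals per group these values do not settle whether the numbers pair the samples.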
